A study of Homo sapiens with 8 samples.

Results

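The 6 genes described here encode the structural and neck proteins of caveolae: the caveolins CAV1 and CAV2, the cavins CAVIN1 and CAVIN3, and the neck proteins EHD2 and PACSIN2. They were taken by gene symbol from all 20344 genes that were listed in either of 2 deposited tables, and all 6 were listed and tested in both. The set was put together with the crowding result of CAV1 known. The differences of the 6 genes after crowding are therefore a description and carry no test. The rule of choice used no ETV4 KD result, although earlier results of these data were known. The RNA came from H9 (WiCell WA09) human embryonic stem cells (hESCs), an established pluripotent line, in 4 groups of 2 libraries. Low-density cells (labelled small) and high-density cells (labelled crowded) formed 1 experiment, in which crowding was imposed by reducing the area of Matrigel that cells could adhere to. Control cells (labelled Ctrl, here shControl) and cells with a knockdown of the ETS-family transcription factor ETV4 (labelled ETV4 KD, here shETV4) formed the other. Which of the study's hairpins the shETV4 libraries carried was not stated in the sources used here. The 2 tables were normalized separately, so each comparison stays within its own experiment.

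Caveolae are small flask-shaped pits of the plasma membrane. Caveolin oligomers embed in the membrane, cavins assemble on them from the cytosol into the coat, and EHD2 and PACSIN2 shape and hold the neck. CAV1 is required for caveolae in non-muscle cells and CAVIN1 for forming the coat, and caveolae are known to flatten when the membrane is stretched, which buffers membrane tension. The bulk libraries hold RNA of all cells together, so fewer cells with a transcript and less transcript per cell cannot be told apart.

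The libraries held 50359703 to 62410168 counts. ETV4 was 90.8 and 95.1 FPKM (fragments scaled for transcript length and for the number mapped in the library) in the shControl libraries and 45.6 and 40.9 FPKM in the shETV4 libraries, a log2 fold change of -1.15 (SE 0.073, adjusted p = 1.6e-04, edgeR quasi-likelihood test), so the knockdown followed the labels and was partial. In the crowding experiment ETV4 was 73.2 and 72.6 FPKM at low density and 54.2 and 53.9 FPKM at high density. The labels do not say whether the 2 libraries of a group came from separate cultures, so the p-values measure the spread between these libraries, which may be technical. A gene is called where the adjusted p is below 0.05 and the log2 fold change is above 0.5 or below -0.5.

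In low-density and shControl cells the 6 genes stood in the same order of FPKM. PACSIN2, an F-BAR protein that bends membrane, was the highest in all 4 groups, with group means of 22.6 FPKM in shControl and 26.4 FPKM at low density. It was followed by CAVIN1 (12.4 and 21.3 FPKM), CAV1 (7.58 and 9.88 FPKM), CAVIN3 (5.09 and 8.43 FPKM), EHD2 (3.16 and 3.79 FPKM) and CAV2 (2.73 and 1.78 FPKM). No neighbouring genes in these orders overlapped between libraries, although with 2 libraries the spread is poorly known. Among all genes tested, the mean FPKM of PACSIN2 at low density lay at the 86.6th percentile and that of CAV2 at the 36.4th. In shETV4 cells CAVIN3 (7.14 FPKM) and CAV1 (6.68 FPKM) overlapped and could not be ordered. At high density the order became PACSIN2, CAVIN1, CAVIN3, EHD2, CAV1 and CAV2, with CAV1 at 1.44 FPKM.

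**Figure D1:**
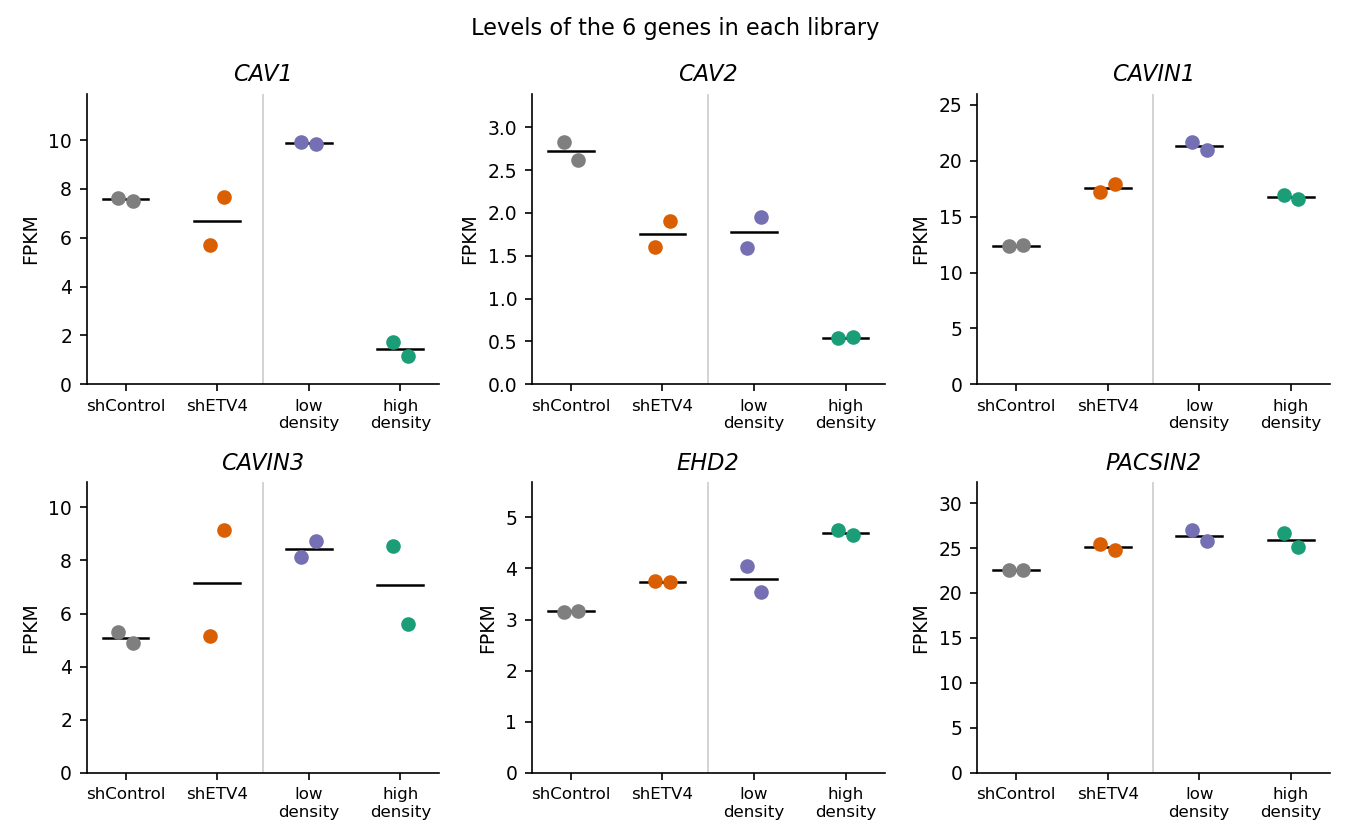
FPKM (vertical axis, starting at 0, a scale of its own for each gene) of the 6 genes in the 8 libraries, with 1 point per library and a bar at the mean of each group of 2; the grey line parts the 2 experiments. The high-density points of CAV1 (1.72 and 1.17 FPKM) lie far below the low-density points (9.92 and 9.83 FPKM), whereas those of PACSIN2 overlap.

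The first question was how the components of caveolae differed between crowded and sparse hESCs. Both caveolins were lower at high density. CAV1 (gene ID 857), the scaffold of the caveolar coat, had 9.92 and 9.83 FPKM at low density, from 1493 and 1825 counts, and 1.72 and 1.17 FPKM at high density, from 288 and 221 counts. Both crowded libraries lay below both low-density libraries by a wide margin. The log2 fold change was -2.83 (SE 0.137, 95% interval -3.13 to -2.54), a 7.13-fold lower level, and the 9th lowest of the 17672 genes tested. The set was put together with this fall known, so its size, interval and rank are descriptive. CAV2 (gene ID 858), which joins CAV1 in hetero-oligomers, had 1.60 and 1.96 FPKM at low density and 0.538 and 0.554 FPKM at high density. The groups did not overlap, and the log2 fold change was -1.75 (SE 0.185, 95% interval -2.14 to -1.37), a 3.37-fold lower level that ranked 77th from the lowest.

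The cavins differed less. CAVIN1 (gene ID 284119), the coat protein that stabilises caveolin assemblies, had 21.7 and 20.9 FPKM at low density and 16.9 and 16.6 FPKM at high density. The crowded libraries were again the lower ones without overlap, but the log2 fold change of -0.40 (SE 0.058) lay within the fold threshold. CAVIN3 (gene ID 112464), a cavin that binds protein kinase C delta, had 8.13 and 8.73 FPKM at low density and 8.54 and 5.62 FPKM at high density. These groups overlapped, since only the replicate 2 library of the crowded cells was low, and the log2 fold change was -0.31 (SE 0.163, 95% interval -0.66 to 0.04). Without that library it was -0.031, and without the other crowded library it was -0.65.

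The neck proteins did not follow the caveolins. EHD2 (gene ID 30846), an ATPase that assembles at the caveolar neck and restrains caveolae at the cell surface, had 4.04 and 3.53 FPKM at low density and 4.74 and 4.66 FPKM at high density. It was the only one of the 6 genes whose crowded libraries lay wholly above the low-density libraries, at a log2 fold change of 0.26 (SE 0.093). PACSIN2 (gene ID 11252) had 27.0 and 25.8 FPKM at low density and 26.6 and 25.1 FPKM at high density. The groups overlapped, with a log2 fold change of -0.09 (SE 0.058, 95% interval -0.21 to 0.04).

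Across all genes tested after crowding, 16.1% were called, 10.7% higher and 5.47% lower, and the FPKM of 70.2% did not overlap between the groups. Of the 6 genes, 2 were past both thresholds, both lower (CAV1 and CAV2), and 4 did not overlap. Nothing is read from these counts, since the choice of the genes used this comparison. The median log2 fold change of the 6 genes was -0.36, beside 0.003 over all genes tested.

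**Figure D2:**
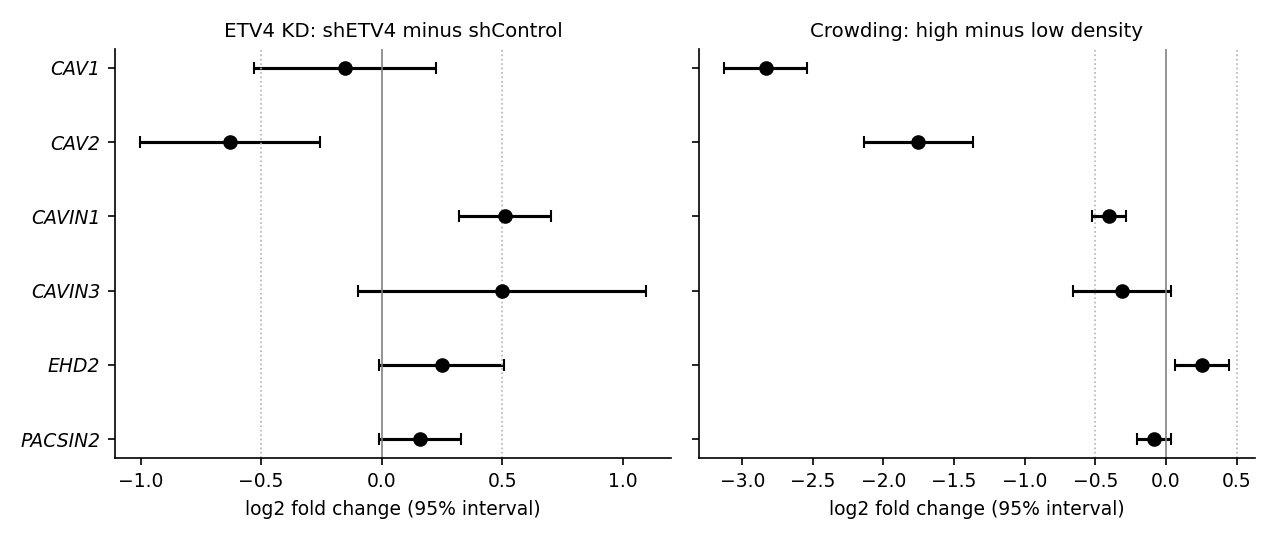
Log2 fold change (horizontal axis) of the 6 genes after ETV4 KD (left) and crowding (right), as fitted values with 95% intervals from 2 against 2 libraries. Dotted lines mark -0.5 and 0.5, and the panels differ in scale. The crowding intervals are a description, since the genes were chosen with the crowding result of CAV1 known. The caveolins CAV1 (-2.83) and CAV2 (-1.75) stand apart after crowding, whereas after ETV4 KD CAV2 lies at -0.63 and CAVIN1 at 0.51.

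The second question was which of these transcripts depended on ETV4 in hESCs. After ETV4 KD CAV2 fell and CAVIN1 rose, and the other 4 genes were not called. CAV2 had 2.83 and 2.62 FPKM in shControl and 1.60 and 1.90 FPKM in shETV4 libraries, from 526 and 452 counts against 291 and 333. Both shETV4 libraries lay below both shControl libraries, and CAV2 fell by 0.63 on the log2 scale (SE 0.163, 95% interval -1.0 to -0.25, adjusted p = 0.0291), a 1.55-fold lower level. The call was lost without either shControl library (adjusted p = 0.162 without replicate 1 and 0.0506 without replicate 2), and without shETV4 replicate 1 the log2 fold change of -0.48 lay within the fold threshold.

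CAV1 was not called after ETV4 KD. It had 7.65 and 7.50 FPKM in shControl and 5.70 and 7.65 FPKM in shETV4 libraries. The groups overlapped, because shETV4 replicate 1 was low and replicate 2 matched the controls. The log2 fold change was -0.15 (SE 0.165, 95% interval -0.53 to 0.22, adjusted p = 0.541), and it was 0.10 without shETV4 replicate 1 (adjusted p = 0.511) and -0.45 without shETV4 replicate 2 (adjusted p = 0.0188).

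CAVIN1 had 12.3 and 12.4 FPKM in shControl and 17.2 and 17.9 FPKM in shETV4 libraries. All shETV4 values were above the controls, and CAVIN1 rose by 0.51 on the log2 scale (SE 0.083, 95% interval 0.32 to 0.70, adjusted p = 0.0057), a 1.42-fold higher level that was just past the fold threshold. The value was within that threshold, and the call lost, without shETV4 replicate 2 (0.45), under limma on log2(FPKM + 0.5) with and without a filter (0.49), under limma on log2(FPKM + 1) (0.47) and with library totals alone (0.47). The adjusted p of CAVIN1 was at most 0.0214 in these and the other settings.

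CAVIN3 had 5.29 and 4.90 FPKM in shControl and 5.16 and 9.13 FPKM in shETV4 libraries. Only shETV4 replicate 2 was high, and the groups overlapped. The log2 fold change of 0.50 (SE 0.261, 95% interval -0.10 to 1.10, adjusted p = 0.205) rested on that library. It was 0.87 without shETV4 replicate 1 (adjusted p = 0.0021) and -0.0056 without shETV4 replicate 2 (adjusted p = 0.988).

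EHD2 had 3.14 and 3.18 FPKM in shControl and 3.76 and 3.73 FPKM in shETV4 libraries. PACSIN2 had 22.6 FPKM in both shControl libraries and 25.5 and 24.8 FPKM in shETV4 libraries. For both neck genes the knockdown libraries lay above the controls without overlap, but neither passed the test, at log2 fold changes of 0.25 (SE 0.114, 95% interval -0.01 to 0.51, adjusted p = 0.151) for EHD2 and 0.16 (SE 0.074, 95% interval -0.01 to 0.33, adjusted p = 0.156) for PACSIN2.

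Of all genes tested after ETV4 KD, 13.0% were called, 5.88% higher and 7.10% lower, and 63.3% did not overlap between the groups. Of the 6 caveolar genes, 2 were called (CAVIN1 higher and CAV2 lower) and 4 did not overlap (4 of 6, close to the share of all genes). Their median log2 fold change was 0.20, beside -0.001 over all genes. Since the 6 genes were chosen by function and are few, these counts do not set them apart from other genes.

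**Figure D3:**
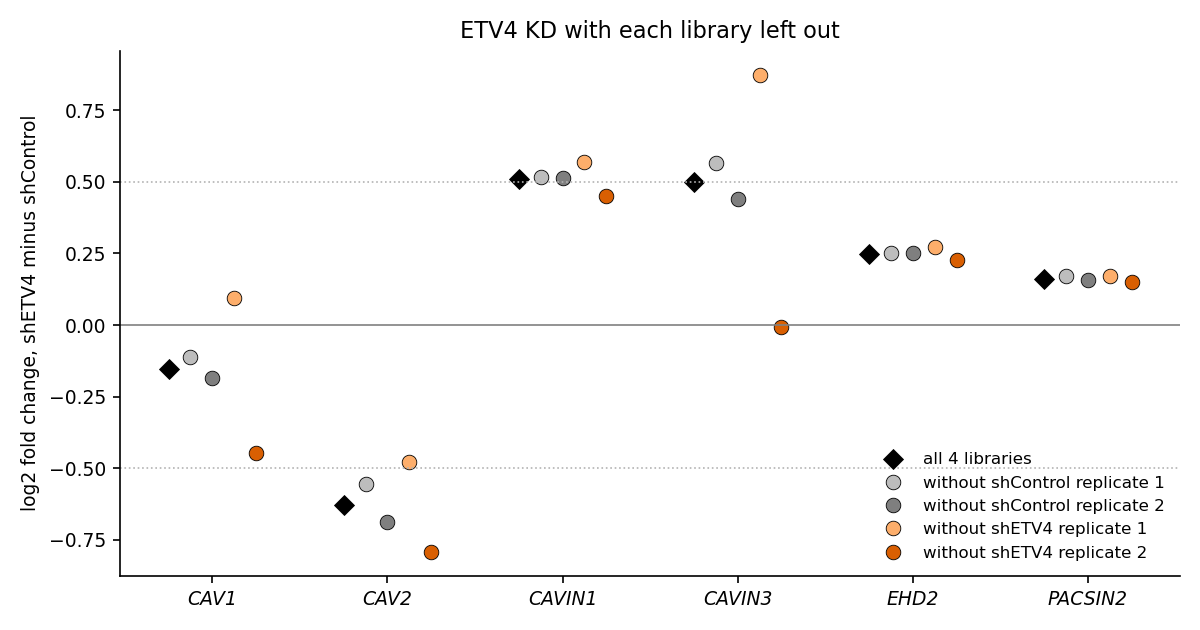
Log2 fold change after ETV4 KD (vertical axis) of the 6 genes with all 4 libraries (diamonds) and with each library left out in turn (circles); dotted lines mark -0.5 and 0.5. CAVIN3 runs from -0.0056 to 0.87 and CAV1 from -0.45 to 0.10, depending on which shETV4 library is kept, whereas EHD2 and PACSIN2 move little.

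Proportions between the transcripts were read as ratios of FPKM within a library, and no ratio was tested. The crowding ratios that involve CAV1 carry the fall that was known when the set was put together. The 2 caveolins stood at 6.22 and 5.02 CAV1 per CAV2 at low density and at 3.19 and 2.11 at high density. The crowded libraries held less CAV1 per CAV2 than the low-density libraries. In the knockdown experiment the ratio was 2.70 and 2.86 in shControl and 3.56 and 4.02 in shETV4 libraries, without overlap; this difference was not tested.

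CAVIN1 transcript exceeded CAV1 transcript in every library. The ratio of CAVIN1 to CAV1 was 2.19 and 2.13 at low density and 9.86 and 14.2 at high density. In the knockdown experiment it was 1.61 and 1.66 in shControl and 3.02 and 2.34 in shETV4 libraries. Both conditions thus held more CAVIN1 per CAV1 than their controls, through CAV1 after crowding and mostly through CAVIN1 after ETV4 KD.

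The ratio of CAVIN3 to CAVIN1 differed little between group means, at 0.396 at low density, 0.422 at high density, 0.411 in shControl and 0.404 in shETV4. The spread between libraries was larger than these differences, with 0.505 and 0.339 in the crowded libraries. EHD2 per CAV1 was 0.408 and 0.359 at low density and 2.76 and 3.99 at high density. CAV1 made up 13.7% and 13.9% of the summed FPKM of the 6 genes at low density and 2.91% and 2.18% at high density. Its share was 14.2% and 14.1% in shControl and 9.68% and 11.7% in shETV4 libraries.

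**Figure D4:**
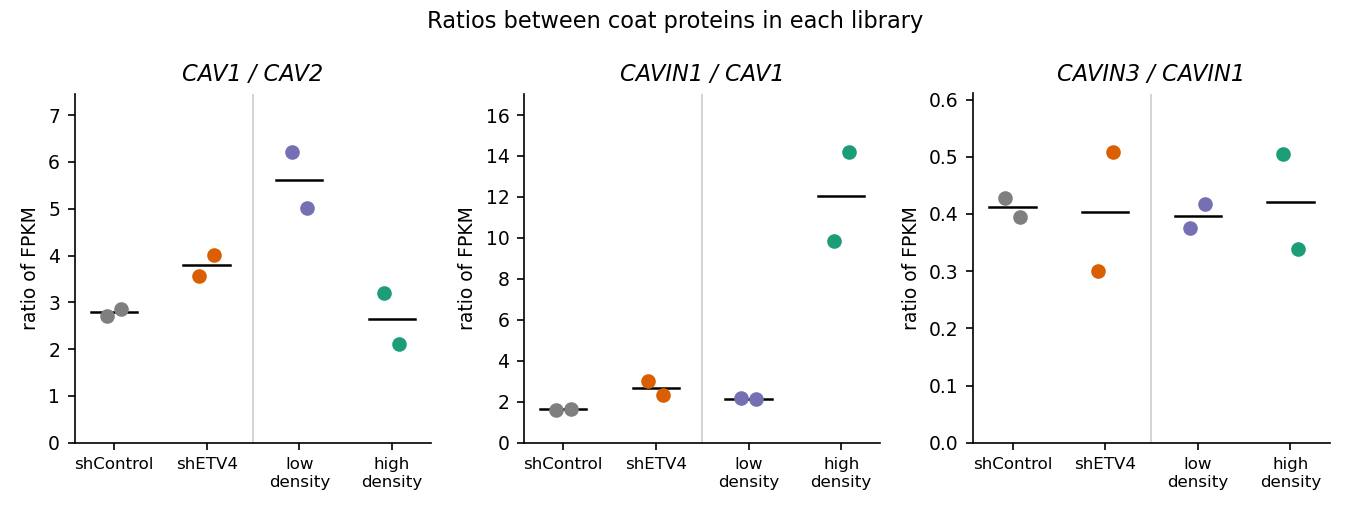
Ratio of FPKM within each library (vertical axis, starting at 0) for CAV1 to CAV2, CAVIN1 to CAV1 and CAVIN3 to CAVIN1, with 1 point per library and a bar at the group mean. CAVIN1 per CAV1 is 9.86 and 14.2 at high density and between 1.61 and 3.02 in the other 6 libraries.

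The sequences before the starts of CAV1 and CAV2 are shown because these are the genes that were lowest after crowding and lie side by side on chromosome 7. In GRCh37, CAV2 (canonical transcript at chr7:116139792-116148595) and CAV1 (canonical transcript at chr7:116165090-116201233) are both on the plus strand, with 16494 bases between the canonical transcripts. RefSeq promoter windows on GRCh38.p14 were found for 3 starts of CAV1, 2 of CAV2, 1 of EHD2 and 6 of PACSIN2. No window was found under the symbols CAVIN1 and CAVIN3, so these genes were not searched. From each window the 250 bases before the start were read, 5′ to 3′ on the strand of the gene. Capitals mark GGGCGG or its complement CCGCCC, the box of SP and KLF factors. The first line is the most upstream CAV1 start (chr7:116524759-116525008), the second the downstream CAV1 start (chr7:116526112-116526361) and the third the upstream CAV2 start (chr7:116499488-116499737), all on the plus strand.
CAV1 upstream start: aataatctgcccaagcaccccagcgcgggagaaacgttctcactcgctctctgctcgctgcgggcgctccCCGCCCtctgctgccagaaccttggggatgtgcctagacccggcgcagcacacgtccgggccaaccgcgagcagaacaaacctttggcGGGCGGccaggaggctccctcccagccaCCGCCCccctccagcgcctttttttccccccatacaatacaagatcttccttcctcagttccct
CAV1 downstream start: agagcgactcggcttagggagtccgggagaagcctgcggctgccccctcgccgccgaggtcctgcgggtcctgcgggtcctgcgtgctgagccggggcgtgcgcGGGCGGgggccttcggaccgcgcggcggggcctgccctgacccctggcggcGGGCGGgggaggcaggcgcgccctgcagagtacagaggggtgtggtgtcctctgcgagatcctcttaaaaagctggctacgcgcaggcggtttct
CAV2 upstream start: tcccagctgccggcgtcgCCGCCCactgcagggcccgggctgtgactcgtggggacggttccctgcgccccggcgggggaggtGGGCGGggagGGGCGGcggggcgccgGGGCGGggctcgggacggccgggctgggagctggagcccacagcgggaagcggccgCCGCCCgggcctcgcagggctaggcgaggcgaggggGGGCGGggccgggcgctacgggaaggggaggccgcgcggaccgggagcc

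The CAV2 stretch held 6 SP/KLF boxes at 83.2% GC, the upstream CAV1 stretch 3 at 63.6% GC and the downstream CAV1 stretch 2 at 73.2% GC. The box is common, being present in 42.6% of 35116 promoter stretches of this length. Searched on both strands, CCGGAAG (ETS, in 8.52% of all stretches), AGGAAGT (ETS of the PEA3 type, 7.01%), GGAATG (TEAD, 11.9%), TGANTCA (AP-1, 6.57%) and the CArG box of SRF (1.16%) had no match before any start of CAV1, CAV2 or EHD2. PACSIN2 held GGAATG before 4 of its 6 starts, of which 3 windows overlap and share the match, and AGGAAGT before 1. A match is a run of letters, and its absence says only that these letters are not in these windows.

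The genes around the caveolar genes were examined next, as the 3 nearest protein-coding genes on each side that were tested. After crowding, 3 of the 6 genes around CAV1 and CAV2 were called lower and none higher, beside 5.47% called lower over all genes tested. Being the nearest tested genes, not all of them lay close by. MDFIC is at chr7:114562149-114659971 and SMIM30 at chr7:112756773-112758615, whereas the canonical CAV2 transcript starts at 116139792. Whether these genes fell together as a block was not tested. MDFIC, an inhibitor of MyoD-family factors, fell by 1.16 on the log2 scale (SE 0.118, adjusted p = 1.7e-07). TES, a LIM-domain protein of focal adhesions, fell by 0.67 (SE 0.069, adjusted p = 1.7e-07). MET, the receptor of hepatocyte growth factor and the next gene downstream of CAV1, fell by 0.62 (SE 0.087, adjusted p = 1.1e-05).

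After ETV4 KD, TES was the only one of these 6 genes called, and it rose by 0.74 (SE 0.079, adjusted p = 0.0012), the opposite direction to its neighbour CAV2. Beside the other 4 genes, crowding called 4 of 24 neighbours higher (STAT5A near CAVIN1, and A4GALT, ARFGAP3 and TTLL1 near PACSIN2) and 3 lower (TRIM22 and CCKBR near CAVIN3, and PLA2G4C near EHD2). ETV4 KD called 3 of 24 lower, which were STAT5A (-1.44), A4GALT (-0.79) and TTLL1 (-0.75). The 30 neighbours thus had 10 calls after crowding and 4 after ETV4 KD, beside the shares of 16.1% and 13.0% over all genes.

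Other genes of the pathway were read from 4 lists. Among the caveola paralogs, 6 of 8 were tested (CAV3 and CAVIN2 were not analysed here) and none was called in either comparison by edgeR, DESeq2 or limma on log2(FPKM + 0.5). At an unadjusted p below 0.05, 1 of the 6 passed after ETV4 KD and 4 after crowding. The share of all genes at that level is not given here, so nothing is read from this or the like counts below. After crowding the recycling ATPases EHD1 (-0.45, SE 0.076, adjusted p = 1.1e-04) and EHD3 (-0.40, SE 0.091, adjusted p = 0.0014) passed on p but not on fold, in the opposite direction to EHD2. PACSIN1 (0.44, SE 0.095, adjusted p = 9.4e-04) and PACSIN3 (0.31, SE 0.065, adjusted p = 8.0e-04) likewise passed on p alone, with positive values.

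The regulators (filamins, ABL, SRC-family and dynamin 2 among them) were all 13 tested and none was called in either comparison by these 3 tools, with 5 at an unadjusted p below 0.05 in each. FLNA, the filamin that links caveolae to actin stress fibres, came nearest after crowding, at -0.47 (SE 0.045, adjusted p = 5.9e-08), and was 0.29 after ETV4 KD (SE 0.068, adjusted p = 0.0213). DIAPH1, a formin that builds such fibres, was -0.34 after crowding (SE 0.063, adjusted p = 2.5e-04). The median log2 fold changes of the paralogs and regulators were -0.07 and 0.04 after ETV4 KD and 0.01 and -0.05 after crowding.

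Of the 6 flotillin and raft scaffolds, 1 was called in each comparison, the adaptor PAG1 (1.66 after ETV4 KD and -1.90 after crowding). PAG1 was at or below 0.175 FPKM in every library and is named because it was the only call. FLOT1 and FLOT2, which build a caveolin-free membrane domain, were not called in either comparison. Of the 11 clathrin and AP2 genes, none was called after ETV4 KD by edgeR, DESeq2 or limma, with 7 at an unadjusted p below 0.05. After crowding 10 of the 11 lay below 0, with a median log2 fold change of -0.16, beside 0.003 over all genes tested. Of the 11, 8 had an unadjusted p below 0.05, 5 passed on adjusted p alone, all lower, and 2 were called. DNM1, a dynamin, rose by 0.53 (SE 0.066, adjusted p = 2.9e-06), from 8.19 to 12.2 FPKM. DNM3, named after its values were seen because its mean of 0.97 FPKM was under the naming minimum of 1 FPKM, fell by 1.73 (SE 0.149, adjusted p = 1.6e-08). Over the 35 list genes tested, 1 was called after ETV4 KD and 3 after crowding, beside the shares of 13.0% and 16.1% over all genes tested.

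**Figure D5:**
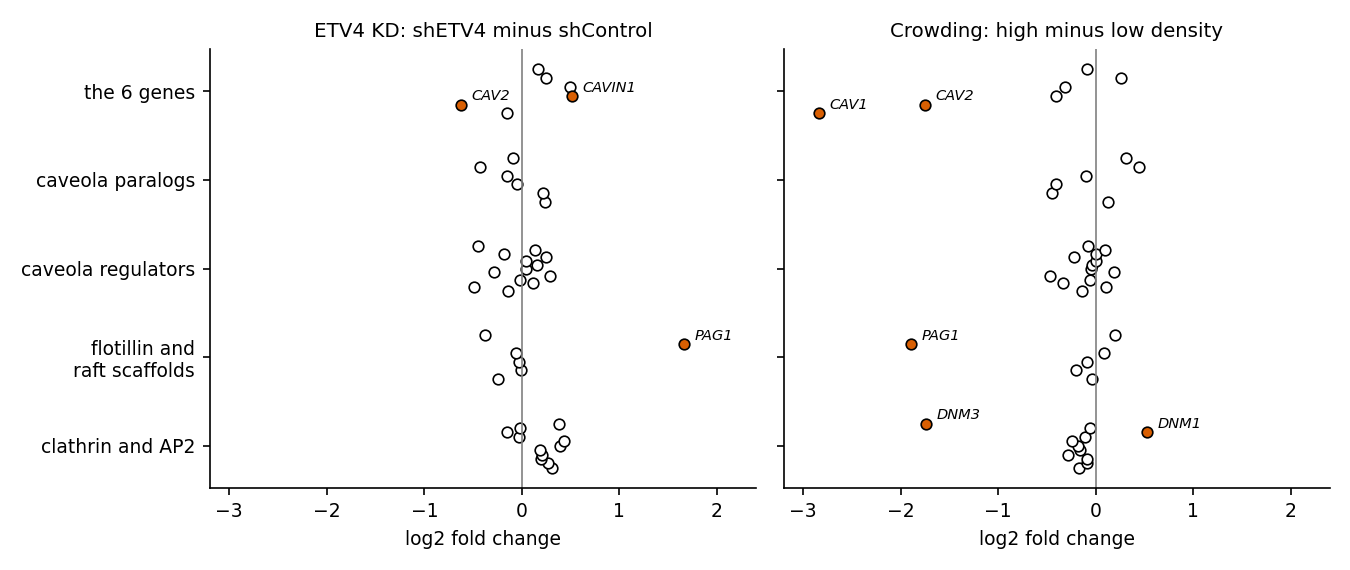
Log2 fold change (horizontal axis) after ETV4 KD (left) and crowding (right) for the 6 caveolar genes and the genes of 4 pathway lists, with 1 point per gene; filled points passed an adjusted p of 0.05 and an absolute log2 fold change of 0.5, which for the 6 genes after crowding is a description. Nearly all list genes lie between -0.5 and 0.5, with PAG1, DNM1 and DNM3 as the exceptions.

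The genes whose pattern over the 8 libraries was most like that of CAV1 were PIEZO1, ETV6, GCNT4, RUNX1T1 and PTDSS1, among 12475 genes, with Pearson r of 0.998, 0.996, 0.996, 0.996 and 0.995 for log2 CPM centred within each experiment. The points come from 2 experiments, and the gap between low and high density is carried by the 4 crowding libraries. A high r can thus restate the crowding difference of CAV1, which was known beforehand, and is not read as further evidence of likeness. PIEZO1, a stretch-activated cation channel, had log2 fold changes of -0.53 after crowding and -0.02 after ETV4 KD. GCNT4, a glycosyltransferase, was the nearest in size to CAV1, at -2.67 and -0.21. Among the other caveolar genes r with CAV1 was 0.943 for CAV2, 0.577 for CAVIN1, 0.476 for CAVIN3, 0.431 for PACSIN2 and -0.667 for EHD2.

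Markers were read as a check of the label and for cells that carry many caveolae. All 10 pluripotency markers were tested, with a summed level of 2962 to 3730 FPKM in every library. After ETV4 KD 1 of them was called higher (LIN28A) and 2 lower (TDGF1 and DNMT3B), and after crowding none was called by edgeR, DESeq2 or limma. In edgeR 7 of the 10 nevertheless passed on adjusted p after crowding and missed on fold alone, 4 higher and 3 lower. Among them were NANOG (-0.46, SE 0.059, adjusted p = 3.4e-06) and SOX2 (0.41, SE 0.055, adjusted p = 6.7e-06). Fibroblast or mesenchyme markers summed to 118 to 120 FPKM at low density and 84.6 to 85.3 FPKM at high density, mostly THY1, which hESCs also express. Of their 6 tested genes 3 were called lower after crowding (THY1 at -0.63, PDGFRB at -1.58 and POSTN), and COL3A1, LUM, DCN and TWIST1 were not in that table. After ETV4 KD the sum was 156 to 159 FPKM in shControl and 119 to 128 FPKM in shETV4 libraries, with THY1 and PDGFRB called lower and COL1A1 higher among 7 tested.

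Endothelial markers summed to 28.4 to 29.3 FPKM at low density and 33.1 to 37.4 FPKM at high density. Most of this sum was KDR, at 24.2 and 33.5 FPKM in the means of the groups (log2 fold change 0.41), whereas 4 of the 5 tested genes lay below 0, with a median of -0.48. PECAM1, CDH5, EMCN and ESAM were not in that table, and TEK (-1.75) was the 1 gene called, lower. After ETV4 KD they summed to 35.6 to 36.3 FPKM in shControl and 21.9 to 28.8 FPKM in shETV4 libraries. Of 7 tested, edgeR called 3 lower (KDR, CDH5 and ERG) and DESeq2 called 2. Mesendoderm markers summed to 4.50 to 4.85 FPKM at low density and 1.15 to 1.29 FPKM at high density, with 2 of 5 called lower (CER1 and FOXA2), and to 2.36 to 3.47 FPKM in shControl and 1.58 to 2.27 FPKM in shETV4 libraries, with CER1 called lower and GATA4 higher among 4 tested. Amnion or trophoblast markers summed to 4.75 to 5.24 FPKM at low density and 7.48 to 7.51 FPKM at high density, with IGFBP3 called higher among 4 tested, and to 8.36 to 8.42 FPKM in shControl and 6.10 to 6.77 FPKM in shETV4 libraries, with IGFBP3 called higher and GABRP lower among 4. Neuroectoderm markers stayed at or below 0.328 FPKM in sum in every library. After crowding edgeR called SOX1 higher and LHX2 lower among 3 tested, and DESeq2 called none of the 3. After ETV4 KD none of 2 was called by edgeR or DESeq2 or had an unadjusted p below 0.05. Several of the markers called were near the floor in the experiment of the call. The highest library was 0.0997 FPKM for CDH5, 0.205 for ERG, 0.281 for FOXA2, 0.204 for GATA4 and 0.329 for POSTN. The part of any such cells in the caveolin differences was not tested.

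Some counts carry an annotation limit. In GENCODE, CAV1, CAVIN1 (chr17:40554467-40575274, minus strand), CAVIN3 (chr11:6340176-6341762, minus strand) and EHD2 (chr19:48216679-48246391, plus strand) are each overlapped by 1 long non-coding RNA gene. The canonical transcripts of CAV2 and PACSIN2 (chr22:43265779-43411155, minus strand) are not, and overlap was read over canonical transcripts only. The full PACSIN2 gene (chr22:43231418-43411155) also overlaps the protein-coding gene ARFGAP3 (chr22:43192508-43254112), so reads there may be shared. The libraries were made with a stranded kit, but whether strand was used in counting is not given in the sources used here. Reads of CAV1 and CAVIN3 may thus be shared with their long non-coding RNA genes, which lie on the opposite strand. Those of CAVIN1 and EHD2 lie on the same strand, where counting by strand would not separate the reads.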

How the data were processed

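The data are 8 poly-A RNA-seq libraries of H9 hESCs, 2 in each of 4 groups. Per the labels and the study's methods, the authors prepared stranded libraries, trimmed reads with Trimmomatic, mapped them to GRCh37 (hg19) with HISAT2 2.1.0 and assembled known transcripts with StringTie 2.1.3b. They deposited 2 tables, one per experiment, with raw read counts per gene and FPKM, normalized by the authors for transcript length and mapped reads. A table lists only genes with at least 1 count in each of its 4 libraries. Columns of the authors' own comparisons, which hold fold changes and p-values, were not used, nor were 16 other per-sample columns.

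Counts were tested with edgeR 4.0.16 (R 4.3.3) in each table (filterByExpr, TMM, robust dispersions, quasi-likelihood test), over 17879 genes for ETV4 KD and 17672 for crowding, with Benjamini-Hochberg adjustment. SEs were obtained from each log2 fold change and its F statistic. The test was also run on simulated independent counts, with dispersions taken from these libraries. Such counts cannot show whether the 2 libraries of a group came from separate cultures. FPKM served for levels and ratios, with depths of 50359703 to 62410168 counts. Alternatives were DESeq2 1.42.0, limma 3.58.1 on log2(FPKM + 0.1, 0.5 or 1), other filters, the replicate block, each library left out and, added after seeing the data, library totals alone.

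The 6 genes and the lists were chosen with earlier results of these data known. List genes, neighbours and markers were named where called at a mean of at least 1 FPKM, other names being given after their values were seen, and the 5 genes most like CAV1 by Pearson r. Gene positions are from GENCODE v44lift37, and promoter sequences from RefSeq.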

Additional observations from a re-analysis of the deposited data

How the results depend on the processing

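Across the settings the knockdown calls of CAV2 and CAVIN1 were the least settled. CAV2 was not called under limma on log2(FPKM + 1) (-0.44) and on log2(FPKM + 0.5) without a filter (-0.52, adjusted p = 0.0509), and ran from -0.79 to -0.48 with 1 library left out. CAVIN1 was at 0.49 under limma on log2(FPKM + 0.5) with and without the filter, at 0.47 on log2(FPKM + 1) and with library totals alone, and ran from 0.45 to 0.57. CAV1 (-0.45 to 0.10) and CAVIN3 (-0.0056 to 0.87) changed sign with 1 library left out. The 2 caveolar genes called became 1 under limma on log2(FPKM + 0.5) and library totals alone, 0 on log2(FPKM + 1), without its filter and at an absolute log2 fold change above 1, and 1 to 2 with 1 library left out.

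The list genes called after ETV4 KD were 2 under the replicate block and 0 under limma on log2(FPKM + 0.5), with and without the filter, and on log2(FPKM + 1), and 1 to 6 with 1 library left out, and those after crowding 3 to 5. Neighbours called were 1 in each comparison at an absolute log2 fold change above 1, 6 after crowding on log2(FPKM + 1), 2 to 8 after ETV4 KD and 8 to 12 after crowding with 1 library left out. After crowding CAV1 was at -2.43 on log2(FPKM + 0.5) with and without the filter and -2.16 on log2(FPKM + 1), and from -3.14 to -2.56 with 1 library left out. CAV2 was at -1.12 on log2(FPKM + 0.5), likewise with and without the filter, -1.53 with 0.1 and -0.84 with 1, and from -1.89 to -1.60; a pseudocount pulls low values together. CAVIN1 was at -0.34 with 0.5 (both filters) and 0.1, -0.33 with 1 and -0.36 with library totals alone, and CAVIN3 from -0.65 to -0.031. Ranked by CPM, which is not per length, EHD2 took rank 4 and CAVIN3 rank 5 at low density. The cause of these shifts was otherwise not tested.

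The labels link same-numbered libraries only by that number. Their deviations correlated at 0.09 for ETV4 KD and -0.04 for crowding, which cannot show whether they shared a batch. The replicate block changed no ETV4 KD call of the 6 genes. PACSIN2 then passed on p alone in edgeR (0.16, adjusted p = 0.037). With 2 libraries a group the spread between libraries is poorly known, and CAVIN3 differed between replicates in both experiments. Depth limits CAV2 at high density, which rests on 101 and 118 counts.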
